A study of Mus musculus with 6 samples.

Results

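A set of 8 genes of salt and bicarbonate transport were followed in the submandibular gland (SMG) of female mice: Scnn1a, Scnn1b and Scnn1g, Cftr, Slc9a3, Slc26a6, Slc4a2 and Atp1b1. They were taken by name, with earlier results of these data known, from a table of raw read counts with 43280 rows. All 8 were among the 18606 rows that had at least 10 counts in sum and were tested. RNA-seq was performed on 6 libraries, 3 glands labelled WT and 3 labelled DKO, to learn which genes change when the heparan sulfate 3-O-sulfotransferase genes Hs3st3a1 and Hs3st3b1 are both lost. DKO mice, per the study, carried on 1 chromosome copy a frameshift deletion in exon 1 of Hs3st3a1, made with a zinc finger nuclease, and a knockout allele of Hs3st3b1 with a LacZ cassette, and were homozygous offspring of heterozygous intercrosses on a C57BL/6 background; WT littermates were the controls. Both changes were germline and present in every cell of the mouse. Mice were adult, untreated as far as the sources used here say, and more than 1 founder line was made, but the line behind these glands and the exact age were not given. Libraries carry the numbers 1, 4 and 5 in both groups, 1 gland each. Nothing in the labels says how the glands were shared among mice or litters, so the p-values measure the spread between these 3 and 3 glands.

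The SMG makes saliva in 2 steps. Acini secrete a fluid rich in sodium chloride, and the ducts then take sodium and chloride back and add potassium and bicarbonate, so that final saliva is dilute. At the apical face of duct cells sodium enters through the epithelial sodium channel ENaC, built of the subunits alpha (Scnn1a), beta (Scnn1b) and gamma (Scnn1g), and through the sodium/proton exchanger NHE3 (Slc9a3). Chloride moves through the channel CFTR (Cftr) and in exchange for bicarbonate through Slc26a6, while Slc4a2 (AE2) exchanges the same anions at the basolateral face. The sodium pump, whose beta 1 subunit is Atp1b1, drives the whole transport. Slc4a2 and the sodium pump are also used by acinar cells, and CFTR is known to be abundant in ionocytes, a rare epithelial cell type. RNA of the whole gland was measured here, so no count could be placed in ducts, and fewer cells of a type and less RNA per cell cannot be told apart.

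Total counts were between 23674258 and 29611975 per library, and the 8 genes had between 269 and 15611 counts each in a library. The targeted genes did not separate the groups. Hs3st3a1 had 15, 11 and 15 counts in WT 1, 4 and 5 and 11, 8 and 13 in DKO 1, 4 and 5, and Hs3st3b1 had 173, 203 and 261 against 255, 120 and 189 (DESeq2 adjusted p = 0.947 and 0.976). Where on these genes the counted reads lay was not analysed here, and the cause was not tested. WT and DKO are therefore used below as the labels of the libraries. Markers of the sublingual gland, which lies against the SMG, stood apart in 2 libraries: the summed normalized counts of Muc19 and Dcpp1 were 62257 in WT 5 and 4159 in DKO 1, against 77.2 to 133 in the other 4 libraries, and the third marker, Bpifb2, had no count. Both libraries were kept, and each call, overlap of groups, ratio or ENaC share of the 8 genes that changed its call or its overlap without them is given both ways. Markers listed for duct epithelium, keratins among them, summed to 21431 to 22531 normalized counts in WT and 20323 to 22294 in DKO, and 0 of 8 passed the test. Their median log2 fold change was 0.03. Of the 8, 3 lay lower in every DKO library than in any WT library, where 10.5% of all rows did. These were Krt7 (log2 fold change -0.23), Krt19 (-0.34) and Ehf (-0.20). Granular duct markers differed, with 6 of 8 lower in DKO, among them Egf (log2 fold change -0.69, adjusted p = 1.60e-05), a median log2 fold change of -0.86 and summed normalized counts of 359470 to 408190 in WT and 292010 to 387480 in DKO. Acinar markers had a median log2 fold change of 0.32 with 1 of 7 called higher (Aqp5). Smgc, in the same list, went the other way (-1.54, DESeq2 adjusted p = 0.571) with overlapping groups. All 4 tested myoepithelial markers were lower, and immune markers had a median of -1.87 with 1 of 6 called lower (Ms4a1). Ms4a1 had 61, 1 and 6 counts in WT 1, 4 and 5 and 0, 1 and 1 in DKO 1, 4 and 5. Its groups overlapped, and its high count lay in WT 1 alone. In the other lists 1 of 4 basal duct markers was lower (Krt14), 0 of 4 endothelial markers and 0 of 2 tested skeletal muscle markers were called, and no fat cell marker had enough counts. The part of these cell types in the results below was not tested.

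Expression of 2 of the 8 genes passed the test, in opposite directions. Scnn1g, the gamma subunit of ENaC, was lower in DKO SMGs at 0.683 times the WT level (95% interval 0.572 to 0.815), and Slc26a6, the apical chloride/bicarbonate exchanger, was higher at 1.56 times (1.29 to 1.88). Scnn1b and Slc9a3 lay lower in every DKO library than in any WT library but did not pass the test. Scnn1a, Cftr, Slc4a2 and Atp1b1 did not pass it either. The 2 calls are 25% of the 8 genes, where 2.9% of all 18606 rows were called (539 rows; 1.02% were higher and 1.88% lower). Among the 5713 rows with a mean at least that of the least counted of the 8 genes, 4.5% were called. All fold changes are of DKO over WT, and calls are by an adjusted p under 0.05 in DESeq2, the tool that the study's methods name. Neither edgeR nor limma-voom called any of the 8 genes, and they called 10 and 7 rows of the whole table, 0.0537% and 0.0376%; at an unadjusted p under 0.05 there were 4 of the 8 genes by each of the 3 tools, beside 12.2% of all rows by DESeq2, 15% by edgeR and 14% by limma-voom.

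**Figure D1:**
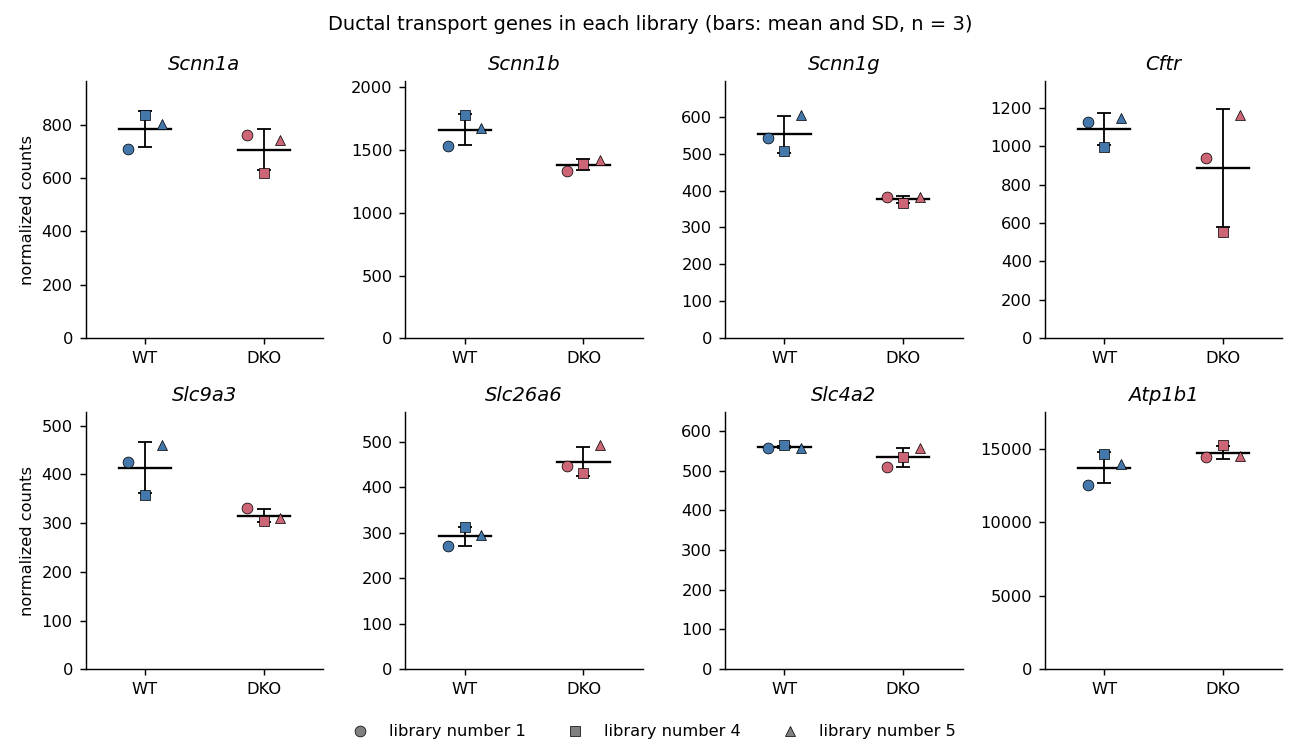
Normalized counts (raw count divided by the library's size factor, linear axis from 0) of the 8 genes in each of the 3 WT (blue) and 3 DKO (red) libraries; the shape marks the library number, and bars are the mean and SD. All DKO points of Scnn1g (366 to 383) lie below all WT points (508 to 605), all DKO points of Slc26a6 (431 to 492) lie above all WT points (270.2 to 312), and the DKO points of Cftr spread from 555 to 1164.

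Positions are from the GENCODE M21 annotation of the GRCm38 build. Scnn1g (chr7:121734479-121768475) and Scnn1b (chr7:121865038-121918514) share a chromosome and its plus strand, 96562 bp apart, while Scnn1a (chr6:125320659-125344943) is on another. Cftr is at chr6:18170687-18322768, Slc9a3 at chr13:74121457-74169442, Slc26a6 at chr9:108853283-108913049 and Slc4a2 at chr5:24423837-24440950, all on the plus strand, and Atp1b1 is at chr1:164437109-164458355 on the minus strand. All 8 are protein-coding. The 250 bases before the RefSeq start (GRCm38.p6) are printed for the 2 genes that passed the test and for Scnn1b, the neighbour of Scnn1g, to show what stands upstream of them: chr7:121734229-121734478 for Scnn1g, chr7:121864788-121865037 for Scnn1b and chr9:108853793-108854042 for Slc26a6, all on the plus strand, 5′ to 3′. Capitals mark matches to the GC box GGGCGG and the CCAAT box CCAAT on either strand.
Scnn1g: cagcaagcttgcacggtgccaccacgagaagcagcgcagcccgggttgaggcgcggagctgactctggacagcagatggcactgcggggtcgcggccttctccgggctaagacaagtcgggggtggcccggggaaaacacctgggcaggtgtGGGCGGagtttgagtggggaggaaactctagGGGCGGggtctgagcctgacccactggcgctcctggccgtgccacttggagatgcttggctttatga
Scnn1b: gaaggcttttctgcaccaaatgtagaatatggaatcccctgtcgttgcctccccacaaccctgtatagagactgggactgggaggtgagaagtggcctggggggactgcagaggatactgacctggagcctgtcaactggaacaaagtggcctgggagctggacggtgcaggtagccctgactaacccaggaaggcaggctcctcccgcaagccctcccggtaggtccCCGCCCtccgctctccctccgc
Slc26a6: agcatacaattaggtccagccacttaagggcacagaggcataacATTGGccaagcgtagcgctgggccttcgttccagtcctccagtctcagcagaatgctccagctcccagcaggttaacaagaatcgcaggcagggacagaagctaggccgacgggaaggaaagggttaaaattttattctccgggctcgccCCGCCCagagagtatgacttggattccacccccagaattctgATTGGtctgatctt
The Scnn1g window was 65.2% G and C and held 2 GC boxes, beginning 98 and 67 bases before the start. The Scnn1b window, at 60.8%, held 1 on the reverse strand at 22 bases. That of Slc26a6, at 53.2%, held 1 reverse GC box at 56 bases and 2 reverse CCAAT boxes at 206 and 14 bases, before a RefSeq start that lies inside the gene as GENCODE draws it. RefSeq windows were found for 7 of the 8 genes, and 6 of those 7 held a GC box, which stood in 32.7% of 32851 RefSeq promoter windows of the same length. CCAAT stood in 2 of the 7 genes' windows and in 33.8% of all windows. Neither the steroid receptor half-site AGAACA (16.1% of all windows), the forkhead site GTAAACA (3.17%) nor the TATA box TATAAA (12.4%) had a match on either strand in any of them. These letter matches are descriptions of sequence and not of binding, and no motif overlapped another kind in the 3 windows printed.

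Of the 4 genes of sodium entry, Scnn1g was the one that passed the test. The gamma subunit completes the ENaC pore and is one of the subunits that proteases cleave to open the channel. Scnn1g had 542, 508 and 605 normalized counts in WT 1, 4 and 5, compared with 383, 366 and 382 in DKO 1, 4 and 5. Every DKO library was below every WT library, and the DKO libraries lay close together (552 ± 49.6 against 377 ± 9.64, mean ± SD, n = 3). The log2 fold change was -0.55 with an SE of 0.13 (DESeq2 adjusted p = 0.0029). The call was not made by edgeR (adjusted p = 0.0986) or limma-voom (0.118), and it was lost without WT 5 (log2 fold change -0.48, adjusted p = 0.081) and without both WT 5 and DKO 1 (-0.49, adjusted p = 0.282). Leaving out any single library other than WT 5 kept the call. With the library number as a block it was lost (log2 fold change -0.55, DESeq2 adjusted p = 0.0591).

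The beta subunit, Scnn1b, had 1531, 1782 and 1674 normalized counts in WT 1, 4 and 5 against 1336, 1385 and 1423 in DKO 1, 4 and 5. The groups did not overlap, although DKO 5 and WT 1 were close. The means were 1662 ± 126 and 1381 ± 43.6, a log2 fold change of -0.27 with an SE of 0.10 and a fold of 0.831 (95% interval 0.724 to 0.953). With an adjusted p of 0.129 by DESeq2 it was not called. Scnn1a, the alpha subunit, without which ENaC does not reach full activity, had 709, 837 and 803 normalized counts in the WT libraries and 760.0, 618 and 741 in the DKO libraries, and the groups overlapped. Its means were 783 ± 66.6 and 706 ± 77.3, with a fold of 0.902 (0.757 to 1.08, DESeq2 adjusted p = 0.729).

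Slc9a3 encodes NHE3, the other apical entry path for sodium, which exports protons in return. Its 425, 357 and 459 normalized counts in WT 1, 4 and 5 compared with 331, 305 and 310.1 in DKO 1, 4 and 5. All DKO libraries were lower than all WT libraries, the nearest pair being WT 4 and DKO 1. The means were 414 ± 52.1 and 315 ± 13.8, with a log2 fold change of -0.39, an SE of 0.15 and a fold of 0.763 (95% interval 0.623 to 0.933). DESeq2 gave an adjusted p of 0.133, which fell to 0.0346 without WT 4, when Slc9a3 was called lower (log2 fold change -0.48). Calls over all rows also rose without WT 4, from 539 to 817. Without any other single library Slc9a3 was not called (DESeq2 adjusted p = 0.144 to 0.652).

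Of the 2 apical paths for chloride and bicarbonate, Slc26a6 passed the test and Cftr did not. Slc26a6 had 270.2, 312 and 296 normalized counts in WT 1, 4 and 5, compared with 448, 431 and 492 in DKO 1, 4 and 5. The lowest DKO library was well above the highest WT library (293 ± 21.1 against 457 ± 31.8). The log2 fold change was 0.64 with an SE of 0.14 (DESeq2 adjusted p = 7.01e-04). It stayed called without any single library, with log2 fold changes of 0.59 to 0.69 and adjusted p up to 0.0242, but not without both WT 5 and DKO 1 (0.66, adjusted p = 0.113) or with total counts scaling (0.41, adjusted p = 0.0611). The edgeR and limma-voom adjusted p were 0.0743 and 0.0826.

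Cftr was the least even of the 8 genes. It had 1124, 996 and 1148 normalized counts in WT 1, 4 and 5, compared with 939, 555 and 1164 in DKO 1, 4 and 5, so that DKO 4 was the lowest and DKO 5 the highest of all 6 libraries. The coefficient of variation was 34.8% in DKO. The means were 1089 ± 82.0 and 886 ± 308, with a log2 fold change of -0.30, an SE of 0.21 and a fold of 0.813 (95% interval 0.614 to 1.08, DESeq2 adjusted p = 0.604). Without DKO 4 the log2 fold change was -0.05, and without DKO 5 it was -0.54, neither of them called. Ionocyte markers, given beside Cftr for the known abundance of CFTR in these cells, summed to 2416, 2424 and 2469 normalized counts in DKO 1, 4 and 5. Of these sums, Atp6v0d2 alone held 1189.8, 1098.5 and 1169.1. In WT the ionocyte markers summed to 2543 to 3129. The part of ionocytes in the Cftr values was not tested. All 7 ionocyte markers had a negative log2 fold change, with a median of -0.17, and 0 of 7 was called.

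Neither basolateral gene passed the test. Slc4a2, the anion exchanger AE2, had 558.1, 563 and 558.0 normalized counts in the WT libraries and 509, 535 and 557 in DKO. These groups did not overlap, but only just, between WT 5 and DKO 5 (559.9 ± 3.11 against 534 ± 24.2). Its fold was 0.952 (95% interval 0.814 to 1.11, DESeq2 adjusted p = 0.898). Atp1b1, which carries the sodium pump to the membrane, had 12527, 14636 and 13982 normalized counts in the WT libraries and 14447, 15224 and 14478 in DKO, and the groups overlapped. The means were 13715 ± 1079 and 14716 ± 439.9, a fold of 1.07 (0.949 to 1.21, adjusted p = 0.734), and this sign turned when libraries were scaled by total counts (log2 fold change -0.13, adjusted p = 0.389).

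Counted over the 8 genes, 6 log2 fold changes were negative and the median was -0.21, against 0.001 over all rows tested and 0.04 over rows as highly counted as these. Groups did not overlap for 5 of the 8, 4 lower in DKO and 1 higher, where 20.3% of all rows (10.5% lower and 9.85% higher) and 25.5% of the highly counted rows did not overlap. Scaling by total counts moved the median of all rows by -0.233 on the log2 scale. Relative to that shift the 8 log2 fold changes ran from -0.55 for Scnn1g to 0.64 for Slc26a6. On the unshifted total counts scale Scnn1b and Slc9a3 were called lower (log2 fold changes -0.50 and -0.63, adjusted p = 3.29e-04 and 0.0106). On that scale 1469 rows of the whole table were called, against 539 with the median-of-ratios size factors.

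**Figure D2:**
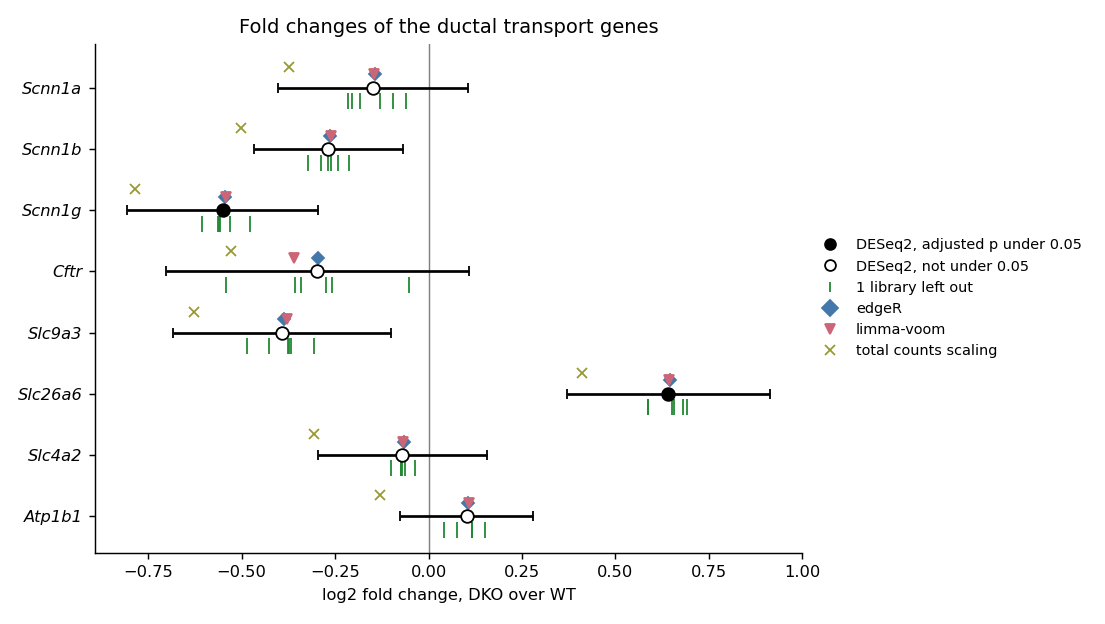
Log2 fold changes of DKO over WT for the 8 genes by DESeq2 (circles, filled where the adjusted p was under 0.05, with 95% intervals), with 1 library left out (green ticks), by edgeR, by limma-voom and with total counts scaling. Scnn1g and Slc26a6 hold the ends at -0.55 and 0.64, the green ticks of Cftr run from -0.54 to -0.05, and the total counts scaling sits to the left of every circle.

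Compared per length, the sodium pump subunit stood far above the transporters it serves. Levels between genes were set side by side as normalized counts per kb of the union of annotated exons. In WT, Atp1b1 had 4452 ± 350.3, followed by Scnn1b with 631 ± 47.9, Scnn1a with 189 ± 16.1, Scnn1g with 184 ± 16.6 and Cftr with 140.3 ± 10.6. Slc9a3 (75.2 ± 9.46), Slc4a2 (67.3 ± 0.373) and Slc26a6 (54.1 ± 3.90) were the lowest 3. Libraries of neighbours in this WT order overlapped for Scnn1a with Scnn1g and for Slc9a3 with Slc4a2, so these pairs were not set apart, and all other neighbours were separate. In DKO the same first 5 places were held by Atp1b1 (4776 ± 143), Scnn1b (525 ± 16.5), Scnn1a (171 ± 18.7), Scnn1g (126 ± 3.22) and Cftr (114 ± 39.7). Slc26a6 came next at 84.4 ± 5.88, above Slc4a2 (64.1 ± 2.91) and Slc9a3 (57.3 ± 2.5), so that it was last of 8 in WT and in place 6 in DKO. Per kb of the longest transcript, Slc26a6 (104.8 ± 7.30) instead stayed below Slc4a2 (125.1 ± 5.68) in DKO, in place 7. Per kb of exon, Scnn1a and Scnn1g, which overlapped in WT, did not overlap in DKO, whereas Cftr overlapped Scnn1a, Scnn1g and Slc26a6 there. On this scale Atp1b1 was above 99.6% and Scnn1b above 96.6% of 17258 rows with an annotated length, and the other 6 genes were above 61.4% to 84.8%.

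**Figure D3:**
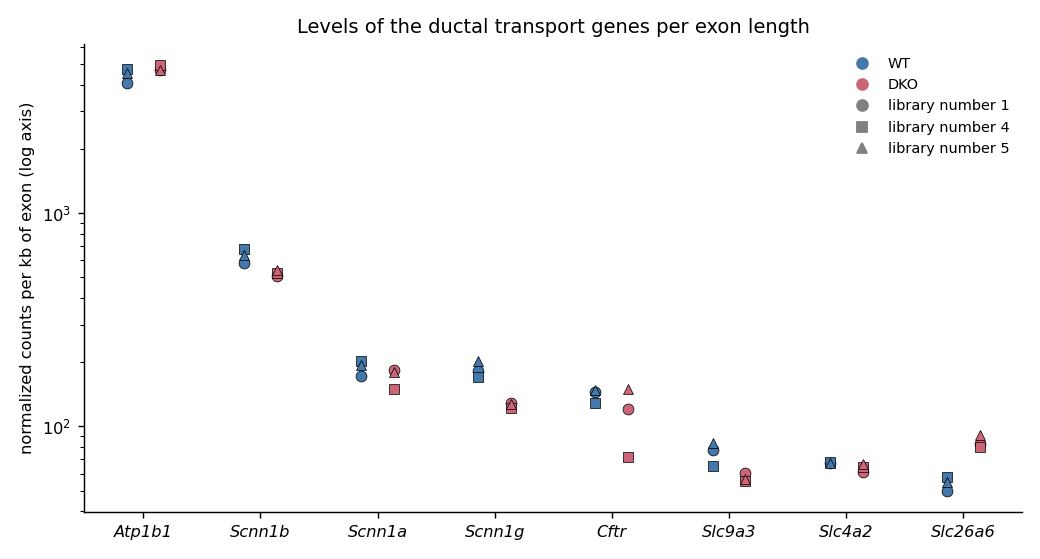
Normalized counts per kb of exon (log axis) of each gene in the 3 WT (blue) and 3 DKO (red) libraries, with genes in the WT order. Atp1b1 lies near 4452 in WT and the lowest 3 genes between 54.1 and 75.2, and Slc26a6 is the gene whose DKO points (79.6 to 91.0) rise above those of its left neighbours.

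ENaC is assembled from its 3 subunits, so their shares of the summed subunit level per kb were compared. The beta subunit made up 62.8% ± 1.54 in WT and 63.9% ± 2.01 in DKO. The alpha share was 18.8% ± 0.479 in WT and 20.8% ± 1.88 in DKO. The gamma share was 19.4%, 16.2% and 19.6% in WT 1, 4 and 5 and 15.6%, 15.3% and 15.1% in DKO 1, 4 and 5, lower in every DKO library than in any WT library. Such shares are of RNA and not of protein in the channel.

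Ratios of raw counts within a library need no scaling between libraries, and 7 were compared, chosen with the values of the genes known. With 3 against 3, an exact two-sided permutation test cannot give a p below 0.1, so none could pass 0.05. The ratio of Scnn1g to Scnn1a was 0.765, 0.606 and 0.754 in WT 1, 4 and 5 and 0.504, 0.592 and 0.515 in DKO 1, 4 and 5. The groups did not overlap, with WT 4 and DKO 4 close (log2 difference -0.40, exact permutation p = 0.1, adjusted 0.14). Scnn1g to Scnn1b, in contrast, overlapped at 0.285 to 0.362 in WT and 0.264 to 0.287 in DKO (exact permutation p = 0.2, adjusted 0.233). That overlap rested on DKO 1, and without WT 5 and DKO 1 the values were 0.285 to 0.354 and 0.264 to 0.268, which did not overlap. Scnn1b to Scnn1a overlapped with and without those 2 libraries, at 2.09 to 2.16 and 1.76 to 2.24 with all 6 (exact permutation p = 0.4). Scnn1g to Slc9a3, the ENaC subunit to the exchanger, did not overlap at 1.28 to 1.42 in WT and 1.16 to 1.23 in DKO (log2 difference -0.16, exact permutation p = 0.1, adjusted 0.14).

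The 3 ratios with Slc26a6 gave the largest differences of the 7. Slc26a6 to Slc4a2, the apical to the basolateral anion exchanger, was 0.484, 0.554 and 0.530 in WT 1, 4 and 5 and 0.881, 0.805 and 0.884 in DKO 1, 4 and 5, a geometric mean 1.64 times higher. Slc26a6 to Cftr was 0.240 to 0.313 in WT and 0.423 to 0.776 in DKO, 2.01 times higher, with the highest value in DKO 4. Slc26a6 to Scnn1g was 0.498, 0.615 and 0.488 in WT and 1.17, 1.18 and 1.29 in DKO, 2.28 times higher. Scnn1g thus had more raw counts than Slc26a6 in all WT libraries and fewer in all DKO libraries. Raw counts do not allow for gene length. Per kb of exon, Scnn1g stayed above Slc26a6 in every DKO library (122 to 128 against 79.6 to 91.0). Each of the 3 ratios with Slc26a6 had the smallest exact permutation p that the design allows, 0.1 (adjusted 0.14).

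**Figure D4:**
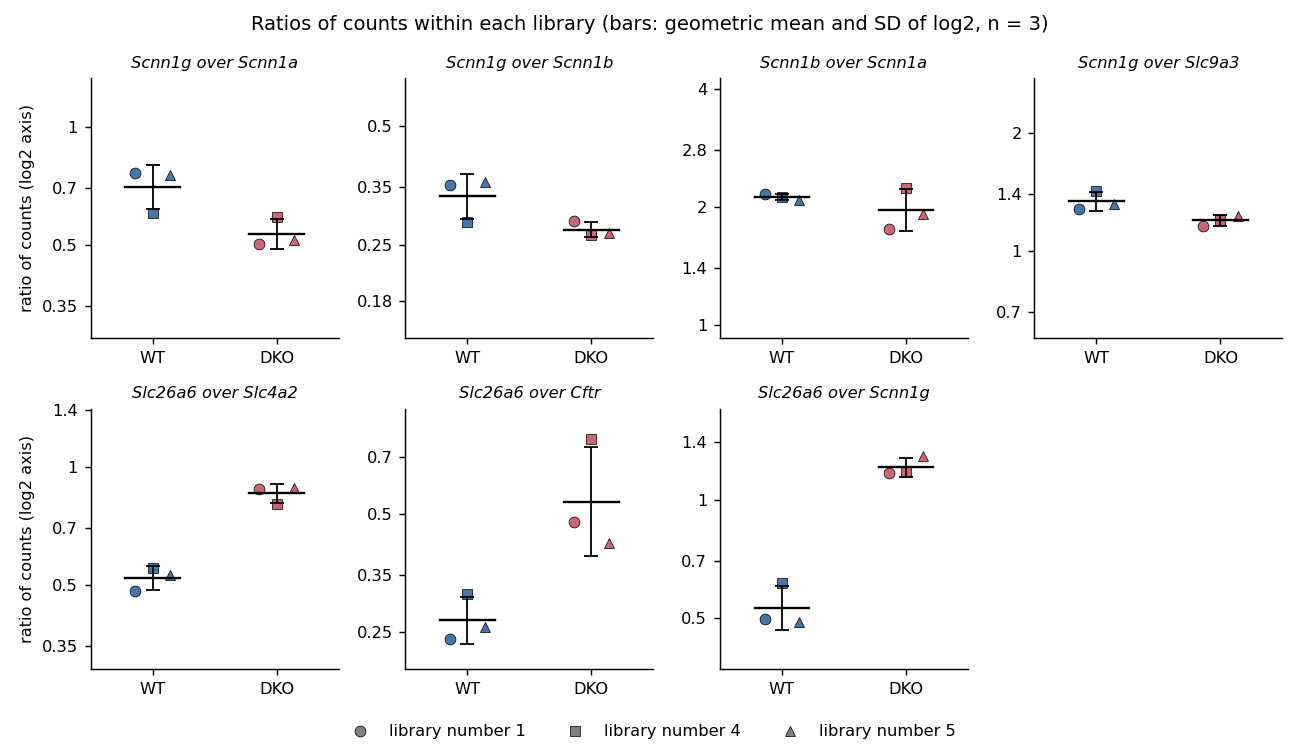
The 7 ratios of raw counts within each library (log2 axis) in WT and DKO, with the geometric mean and SD of log2 as bars (n = 3). The lower row, with Slc26a6 over Slc4a2, Cftr and Scnn1g, shows DKO above WT by 1.64, 2.01 and 2.28 times, and Scnn1g over Scnn1b and Scnn1b over Scnn1a overlap between the groups.

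Because the libraries were unstranded, reads of a gene on the opposite strand cannot be told apart where the 2 overlap. Scnn1a, Scnn1g, Slc9a3 and Slc26a6 overlapped no other annotated gene. Slc4a2 shares 1141 bp of exon, 13.7% of its own, with Fastk on the other strand, which had 733 ± 46.4 normalized counts in the WT libraries and 901 ± 38.4 in DKO (log2 fold change 0.30, adjusted p = 0.116). Atp1b1 shares 575 bp, 18.7% of its exons, with Nme7, a far less counted gene (131 ± 18.5 and 115 ± 5.51, adjusted p = 0.831). Scnn1b overlaps Cog7 only outside exons (log2 fold change 0.19, adjusted p = 0.527). Cftr overlaps the antisense gene Gm15592 over 129 bp and the pseudogene Gm15595 in an intron, which had 0 and 10 to 45 counts per library, and the small nuclear RNA Gm22333 within Slc4a2 had 0 counts. The nearest gene to Slc26a6, Celsr3, lies 313 bp away on the same strand and had 1 to 11 counts per library.

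The wider transport and regulatory genes were read from 5 lists with 66 entries, of which 58 were tested. Only 2 of the 58 were called, 1 in each direction (3.45%, beside 2.9% of all rows), and their median log2 fold change was -0.02. Both belonged to the 14 tested regulators of ENaC. Prss8 encodes prostasin, a membrane-anchored protease that activates ENaC, and had 988, 1056 and 995 normalized counts in WT 1, 4 and 5, compared with 1214, 1457 and 1483 in DKO 1, 4 and 5. All DKO libraries were higher (log2 fold change 0.45, SE 0.11, DESeq2 adjusted p = 0.00671), although the call was lost with edgeR (0.147), with limma-voom (0.178), with total counts scaling (0.212) and without WT 1 (0.115), WT 5 (0.112), DKO 4 (0.062) or DKO 5 (0.116). Wnk4, a kinase that regulates salt cotransporters and channels, had 69.3, 13.7 and 48.4 normalized counts in the WT libraries and 14.2, 8.36 and 9.22 in DKO. Its groups overlapped, since WT 4 lay below DKO 1 (log2 fold change -2.04, SE 0.60, adjusted p = 0.0265; -0.68 with a prior on fold changes). That call was lost with edgeR (0.185), with limma-voom (0.327) and with the library number as a block (0.114). It was also lost without WT 1 (0.473), WT 5 (0.278), DKO 4 (0.212) or DKO 5 (0.195), and without WT 5 and DKO 1 together (0.307). The 2 regulators with the highest mean normalized count, the kinase gene Stk39 and the protease inhibitor gene Spint2, had log2 fold changes of 0.19 and 0.30 (adjusted p = 0.439 and 0.172). Hsd11b2, the enzyme that keeps glucocorticoids from the mineralocorticoid receptor in aldosterone target cells, had only 2 counts over the 6 libraries and was not tested.

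The other 4 lists held no called gene. Among the 10 tested sodium pump subunits and FXYD regulators the median log2 fold change was -0.05, with 3929 ± 348 and 3829 ± 263 normalized counts in WT and DKO for Fxyd2, a small regulatory subunit of the pump. Among the 12 sodium/proton exchangers and their scaffolds the median was -0.02, and Chp1, a calcineurin-like protein that binds these exchangers, had a log2 fold change of 0.09. The 12 tested anion exchangers and bicarbonate cotransporters had a median of 0.06, with 0.10 for the sulfate transporter gene Slc26a2 and 0.08 for Ahcyl1. The 10 tested chloride channels and cation-chloride cotransporters had a median of 0.02. Their most counted members were Slc12a2, the basolateral loader of chloride in acinar cells, at 50273 ± 4850 in WT and 47567 ± 2937 in DKO (log2 fold change -0.08, adjusted p = 0.853), and Ano1, the apical chloride channel of acini, at 3011 ± 779 and 3952 ± 869 (0.39, adjusted p = 0.312). No member of the anion exchanger list was called alongside Slc26a6; whether Slc26a6 differed from that list was not tested.

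**Figure D5:**
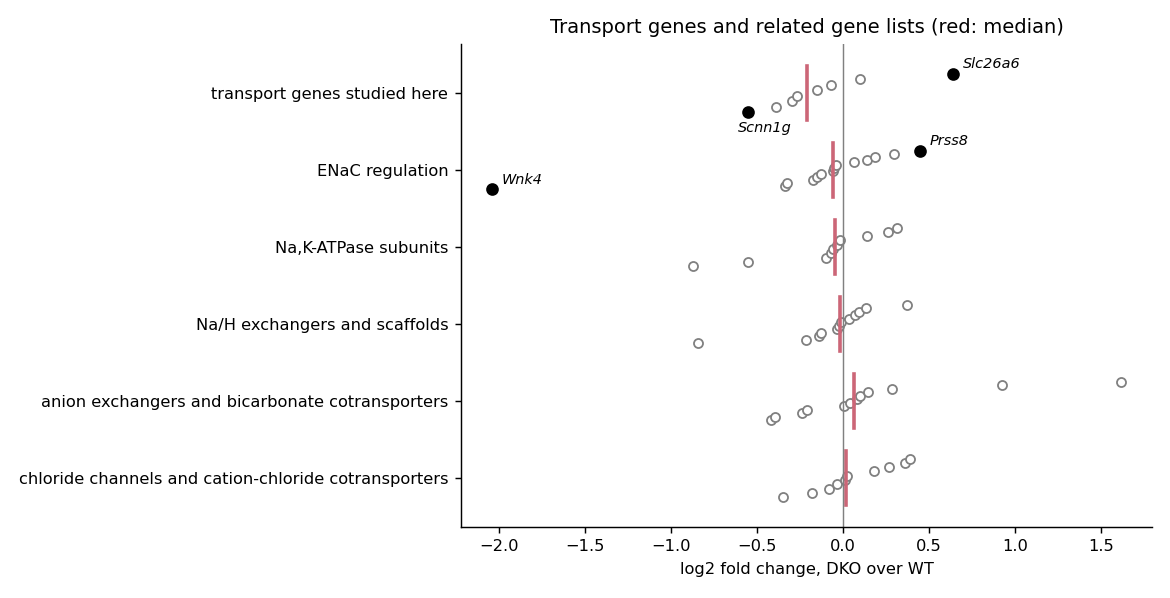
Log2 fold changes of DKO over WT (x axis) for each tested gene of the 8 transport genes and of the 5 related lists, with called genes filled and named and list medians in red. The medians of the 5 lists lie between -0.06 and 0.06, that of the 8 genes at -0.21, and the called genes are Scnn1g, Slc26a6, Prss8 and Wnk4.

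For each of the 8 genes the rows with the most similar course over the 6 libraries were found, by the root mean square difference of centred log2(normalized count + 1) over 11489 rows with a mean of at least 50. This likeness is a description over 6 libraries, with no test, and many rows compete for it. Scnn1g lay nearest to Chic1, Idi1 and Pcdh7 (0.0589 to 0.0626), and Slc26a6 to Morc4, Engase and Hapln4 (0.0836 to 0.0864). The course of Cftr, low in DKO 4, was nearest to Zfp873 (0.0598), Tead1 (0.120) and RP23-73N8.4 (0.124). Scnn1b lay nearest to Sorbs3, Micall1 and RP23-306B14.3 (0.0305 to 0.0498), Scnn1a to Zbtb37, Camta1 and Ash1l (0.0172 to 0.0231) and Slc9a3 to Galnt1, Rev3l and Ssh2 (0.0379 to 0.0509). The nearly level genes Slc4a2 and Atp1b1 matched Pts, 5730455P16Rik and 1810030O07Rik (0.00838 to 0.0197) and Diablo, Vwa8 and Amz2 (0.0179 to 0.0244). None of the 8 genes was among the 3 nearest rows of another.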

How the data were processed

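Total RNA of 6 submandibular glands was sequenced by the authors from unstranded Nextera XT libraries on a HiSeq2500. The deposited values used here are raw counts, 1 row per gene symbol. The submitters' processing notes list STAR 2.5.2a, DESeq2, edgeR and limma and, without a role, the builds GRCm38, mm10 and GRCh38, while the counting tool and annotation were not given in the sources used here. A filtered count table and a normalized signal table were not used here.

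Rows with at least 10 counts in sum were kept and tested with DESeq2 1.42.0 in R 4.3.3 (median-of-ratios size factors from 0.867 to 1.12, Wald test, two-sided, with log2 fold changes not shrunken, Benjamini-Hochberg adjustment over the rows that passed DESeq2's independent and Cook's filters). These filters left 2556 rows without an adjusted p. Values given as normalized counts are raw counts divided by the size factor, and ± is the SD over 3 libraries. Counting error alone gives a coefficient of variation of 6.1% at the lowest count of the 8 genes, 269. Among the less counted genes the spread between libraries lay on both sides of that. It was 0.555% for Slc4a2 in WT, 2.56% for Scnn1g in DKO and 12.6% for Slc9a3 in WT. With 3 libraries, an SD below counting error cannot show that a gene varied little. No pair of libraries within a group agreed within sampling noise (chi-square per degree of freedom at least 16.8), so none repeats another. Each was taken as 1 replicate, but this cannot show that the glands came from different mice.

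The 8 genes, the gene lists and the ratios were chosen with earlier results of these data known. Named from the lists were the genes past the threshold and the 2 of highest mean normalized count per list, except for some genes that are not reported here, with Hsd11b2, Celsr3 and the marker genes added after their values were seen. The marker Jchain was matched to the row Igj. GENCODE M21 symbols matched 39374 of 43280 rows. Alternatives were edgeR 4.0.16 (quasi-likelihood test), limma-voom (limma 3.58.1), TMM or total counts scaling, other count filters, independent filtering off, a fold change prior, the replicate number as a block, each library left out, and the longest transcript as length. Leaving out WT 5 and DKO 1 together was added after seeing the data.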

Additional observations from a re-analysis of the deposited data

How the results depend on the processing

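The direction of the 8 log2 fold changes held under all 16 alternatives to the DESeq2 fit, except that Atp1b1 turned to -0.13 under total counts scaling. The number of the 8 genes called, 2, was 0 with edgeR, 0 with limma-voom, 1 with the replicate number as a block, 0 without WT 5 and DKO 1, and from 1 to 3 with 1 library left out. Over all rows, 539 calls became 10 with edgeR, 7 with limma-voom, 1469 with total counts, 343 with the block, 183 without WT 5 and DKO 1, and 149 (without WT 5) to 817 (without WT 4) with 1 library left out. The 2 calls in the related lists became 0, 0, 8, 1 and 1 under the same settings in that order, and 0 to 6 with 1 library left out. Scnn1g had log2 fold changes of -0.55 with edgeR, -0.54 with limma-voom, -0.55 with the block (adjusted p = 0.0591), -0.49 without WT 5 and DKO 1, and -0.61 to -0.48 with 1 library left out. Slc26a6 had 0.65 with edgeR, 0.64 with limma-voom, 0.41 with total counts, 0.66 without WT 5 and DKO 1 and 0.59 to 0.69 with 1 library left out. With total counts Scnn1b (-0.50) and Slc9a3 (-0.63) became called, and Slc9a3 ranged from -0.48 to -0.31 with 1 library left out. Same-numbered WT and DKO libraries had correlations of -0.133, -0.0244 and -0.259 in their deviations from the group means over 11489 rows. No library correlated best with its own number. Because these deviations were centred within groups of 3, they cannot decide whether the replicate numbers mark litters or batches. The block also ended the call of Wnk4 (-1.85, adjusted p = 0.114). Per kb of the longest transcript, Slc4a2 took place 6 and Slc9a3 place 7 in WT, where Scnn1a and Scnn1g no longer overlapped, and in DKO Cftr took place 4, Scnn1g 5, Slc4a2 6 and Slc26a6 7. The cause of these changes was not tested. Leaving out libraries leaves fewer glands, and 3 per group limits what any of these tests can resolve.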
